A study of Danio rerio with 18 samples.

Results

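FG follicles of zebrafish mutant for sinhcaf were compared with FG follicles of wild-type zebrafish by messenger RNA sequencing, in 4 libraries of each genotype. The mutant fish are given as sinhcaf-/- and the controls as wild type. Neither the lesion, the strain nor the age of the fish is stated, and FG, a stage of follicles taken from the ovary, is not spelled out. Follicles from 1 female were pooled for each library. The spread between libraries therefore holds differences between fish and between preparations, which cannot be told apart. The study also sequenced mature eggs, 5 libraries of each genotype, which are used below only to set beside the follicles; 18 libraries were made in all. Levels are FPKM, fragments scaled by gene length and by sequencing depth. Of 25432 genes in the table, the 10053 that reached 1 FPKM in 4 or more of the 8 follicle libraries were compared, on the scale log2(FPKM + 1), and every log2 difference below is mutant minus wild type on that scale. Single libraries are given in the order 1 to 4. Where a sentence sets values side by side without naming the genotype, wild type comes first. Values with ± are means and SDs of 4 libraries unless another number is given.

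A follicle is an oocyte wrapped in its egg coat and in layers of somatic granulosa and theca cells. The oocyte stores RNA that the egg and the early embryo later use, so most messenger RNA of a large follicle is that of the oocyte, while steroid hormones are made by the somatic layers. The product of sinhcaf is known in mammals as a subunit of the SIN3 complex, in which histone deacetylases remove acetyl groups from histones and thereby repress transcription. In these bulk samples, fewer cells of a type and less RNA per cell cannot be told apart.

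The gene that was mutated had a low level in both genotypes. The transcript of sinhcaf stood at 1.99, 2.91, 3.05 and 0.615 FPKM in wild type and at 0.359, 0.649, 0.383 and 1.04 FPKM in mutants. Wild-type library 4 lay inside the mutant range, so the groups overlapped. The mean was 2.14 ± 1.12 FPKM in wild type and 0.607 ± 0.315 FPKM in mutants (SD, n = 4 each; log2 difference -0.90, SE 0.28, limma adjusted p = 0.0409). A two-sided exact permutation test gave p = 0.0857, where 4 against 4 can reach 0.0286, and with a library left out it ranged from 0.0286 (without wild-type library 4, log2 difference -1.19) to 0.143 (without wild-type library 2 or 3, -0.77 and -0.75). The call was lost in 14 of 24 alternative settings.

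Relative depth was estimated from the steps between low values, with the value of 1 fragment at 0.986 to 1.08 of that in mutant library 1. The search covered only ratios near equality, so it could not have found a large difference in depth. Absolute depth is unknown. The first principal component held 55.9% of the variance and parted the genotypes. The next, with 13.7%, parted mutant libraries 1 and 3 from mutant libraries 2 and 4. Mutant libraries 1 and 3 were the most alike of all pairs (r = 0.994 across genes). Other pairs of the same genotype ran from 0.961 to 0.979. Whether mutant libraries 1 and 3 shared a day or a preparation is not stated, so they may not be independent. The mitochondrial genome gave 10.5 ± 3.0% of summed FPKM in mutant libraries against 15.28 ± 1.67% in wild-type libraries (mean ± SD of 4). A two-sided exact permutation test gave p = 0.0286, or 0.0571 after adjustment for the 4 measures of libraries compared. Most markers of blood, vessels, liver and surface epithelium stayed below 1 FPKM in all libraries, but some did not. Over all libraries krt8 ran from 3.20 to 18.9 FPKM, krt91 from 3.24 to 35.3 FPKM and the leukocyte marker rac2 from 3.70 to 6.19 FPKM. Of the 17 leukocyte markers 11 stayed below 1 FPKM in all libraries, as did 9 of 11 erythrocyte, 13 of 15 endothelial, 19 of 19 liver and 7 of 11 epithelial markers. Summed over a list, leukocyte markers ran from 8.67 to 29.6 FPKM in mutants and from 9.26 to 10 FPKM in wild type. Epithelial markers ran from 11.6 to 58.9 FPKM and from 16.2 to 28.3 FPKM in the same order. In both lists the highest values were those of mutant libraries 2 and 4.

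By limma 2717 genes, 27.0% of those compared, differed at an adjusted p under 0.05, the rule for a call throughout. Higher in mutants were 1037 (10.3%) and lower 1680 (16.7%). A log2 difference of at least 1 was reached by 236 of the higher genes (2.35%) and 324 of the lower ones (3.22%). The 4 mutant libraries did not overlap with the 4 wild-type libraries in 2951 genes (29.4%). The median gene differed by -0.05 and, with values rescaled to TPM, by 0.08, so the balance of calls depends on the scaling. Of the calls, 38.2% were higher in mutants as deposited, 42.3% after median-of-ratios scaling, 48.5% after quantile normalization, 60.02% as TPM, and 47.9% as TPM without the genes of the mitochondrial genome. The excess of lower calls lay among abundant transcripts. At 20 to 100 FPKM 25.3% of genes were called lower and 5.95% higher, while under 5 FPKM 10.5% were lower and 13.2% higher. As TPM, 12.1% of genes at 20 to 100 FPKM were lower and 10.5% higher. Leaving out mutant library 1 or 3 left 646 or 667 higher calls and 1208 or 1215 lower ones, and averaging these 2 libraries left 672 and 1227.

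**Figure D1:**
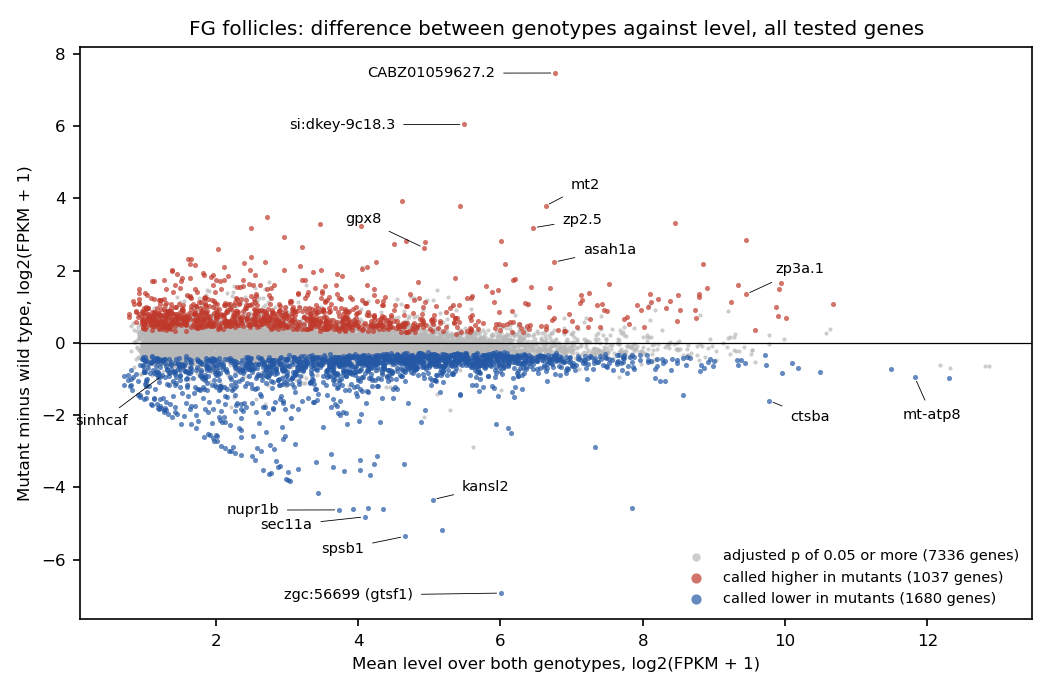
Each point is a tested gene, with its mean level over both genotypes on the horizontal axis and the mutant minus wild-type difference on the vertical axis, both on the log2(FPKM + 1) scale. Red and blue points are the 1037 genes called higher and the 1680 called lower in mutants by limma; the named points include zgc:56699 (gtsf1) at -6.92 and CABZ01059627.2 at 7.47.

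A set of transcripts was close to missing in mutant follicles. With a level of at least 5 FPKM in all 4 libraries of a genotype and under 0.5 FPKM in all 4 of the other, limits chosen after the values were seen, 22 genes were lost in mutants and 2 were gained. The deepest fall was that of zgc:56699, which RefSeq names gtsf1, a gametocyte factor that in mice and flies works with Piwi proteins in silencing transposons. It stood at 137, 122, 113 and 133 FPKM in wild type and at 0.0376, 0.114, 0 and 0.0376 FPKM in mutants (libraries 1 to 4 of each; log2 difference -6.92, SE 0.10, limma adjusted p = 3.54e-10). Each mutant follicle library therefore lay far below each wild-type one. This gene was picked out after its values were seen.

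The other deep falls covered many roles. For spsb1, whose protein brings targets to a ubiquitin ligase, the level was 44.5, 58.1, 56.4 and 33.7 FPKM in wild-type libraries and 0.151, 0.203, 0.222 and 0.127 FPKM in mutant libraries (log2 difference -5.35, SE 0.17, limma adjusted p = 6.85e-08). That of sec11a, a subunit of the signal peptidase that trims secreted proteins, stood at 39.2, 28.3, 30.9 and 29.4 FPKM and 0, 0.185, 0.426 and 0.0899 FPKM (log2 difference -4.81, SE 0.16, limma adjusted p = 6.85e-08). In both, all mutant libraries were under 0.5 FPKM. The stress-responsive nuclear protein gene nupr1b was at 22.5, 29.4, 14.8 and 31.3 FPKM in wild type and was listed at 0 in every mutant library (limma adjusted p = 5.59e-07). Mitochondrial ribosome genes were among the deepest falls. The transcript of mrpl1 was at 25.8, 37.1, 34.6 and 33.7 FPKM in wild type and 0.790, 0.352, 0.195 and 0.417 FPKM in mutants, and that of mrps22 at 17.1, 18.2, 22.0 and 20.7 FPKM and 0.152, 0.220, 0.103 and 0.161 FPKM. Their log2 differences were -4.56 and -4.14, and neither gene's groups overlapped. The chaperone ATPase vcp, which extracts ubiquitin-tagged proteins, was at a low level in all mutants, 1.16, 1.11, 1.15 and 1.34 FPKM against 20.3, 28.6, 23.1 and 27.2 FPKM in wild type (log2 difference -3.55, SE 0.13, limma adjusted p = 1.64e-07). Also lost were fancg of the Fanconi anaemia core complex (13.8 ± 2.68 to 0.0707 ± 0.0595 FPKM) and riok2, a kinase of small ribosomal subunit maturation (13.9 ± 1.64 to 0.239 ± 0.112 FPKM; SD, n = 4 each). The receptor gene gpr157 (14.2 ± 6.55 to 0.0134 ± 0.0268 FPKM) and the scaffold gene grasp (11.7 ± 1.66 to 0.0322 ± 0.0296 FPKM) followed the same pattern.

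In some genes a single library stood apart within its genotype. The transcript of kansl2, a subunit of a histone acetyltransferase complex, was at 0.490, 0.386, 0.379 and 23.5 FPKM in mutant libraries 1 to 4 and at 53.5, 71.6, 46.1 and 60.8 FPKM in wild type (log2 difference -4.33, SE 0.82, limma adjusted p = 0.00506). That of idh3g, a subunit of mitochondrial isocitrate dehydrogenase, was at 0.371, 0.613, 0.341 and 11.5 FPKM in mutants and 26.5, 26.8, 30.5 and 25.6 FPKM in wild type (log2 difference -3.52, SE 0.63, limma adjusted p = 0.00375). In both, mutant library 4 held much more than the other mutant libraries and still less than any wild-type library. The tRNA methyltransferase gene mettl2a had 0.0689, 3.54, 0.204 and 0.136 FPKM in mutants and 32.9, 38.0, 44.6 and 35.6 FPKM in wild type, with mutant library 2 the highest of its group. Among genes that rose, sde2 showed the reverse, 0.466, 0.369, 0.239 and 6.81 FPKM in wild type and 9.07, 9.14, 8.97 and 8.67 FPKM in mutants, with wild-type library 4 near the mutant level. For ppp2r5ca, a regulatory subunit of protein phosphatase 2A, wild-type library 2 was the high one, with 0.155, 5.44, 0.144 and 0.0989 FPKM in wild type and 6.78, 8.47, 6.09 and 7.00 FPKM in mutants.

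**Figure D2:**
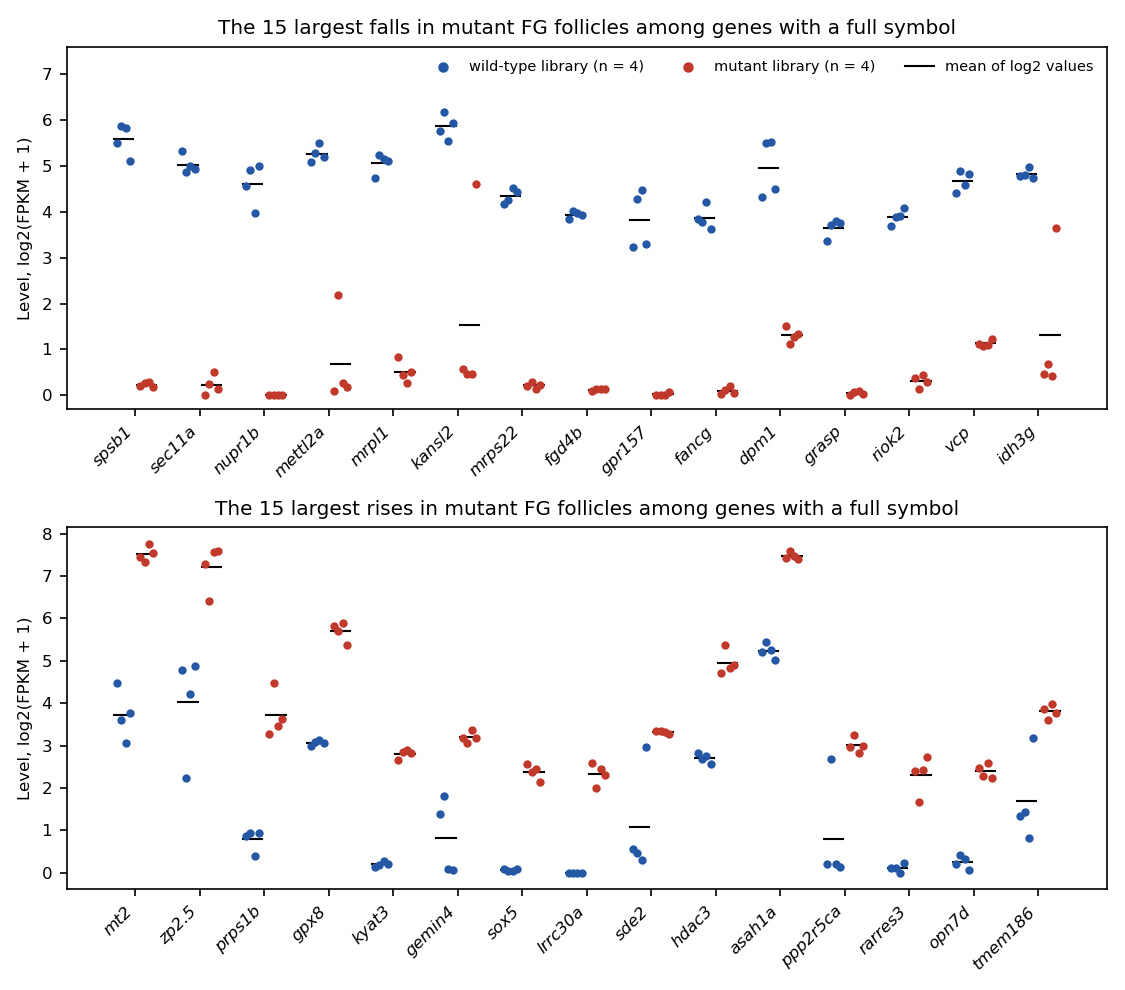
Points are single libraries on the log2(FPKM + 1) scale, 4 wild-type (blue) and 4 mutant (red) for each gene, drawn from library 1 on the left to library 4 on the right, and bars are means of the log2 values. The genes are those of the 15 largest falls and 15 largest rises that carry a full symbol of their own; in the upper panel mutant libraries lie under 2 on this scale, apart from mutant library 4 for kansl2 and idh3g and mutant library 2 for mettl2a.

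Deep falls lay beside each other on the chromosomes. The submitters' processing notes name the build GRCz11, whose annotation was not used here, and gene order was taken from RefSeq on the assembly GRCz12tu, where 8951 of the compared genes have a place. Among these, 149 were called lower with a log2 difference of -1.5 or beyond, and 77 of them (51.7%) had another such gene at most 3 compared genes away. Of the 66 called higher by that much, 11 (16.7%) did. Such falls made up 1.665% and such rises 0.737% of the placed genes. A denser set has more neighbours by chance, so these percentages are not directly comparable. There were 10 runs of at least 3 neighbours among the falls, with 41 genes, and 1 such run among the rises. The longest run held 8 of 9 consecutive compared genes, from pias2, a SUMO ligase, through fancg, vcp and riok2 to the ubiquitin gene ubb. The ninth, atxn2, also fell, by 0.99. Directly outside this run, sub1b was called higher (0.47) and emc6 was not called (0.35). Another run held spns1, a lysosomal lipid transporter, nfatc2ip, sgf29 and nupr1b, and the next 10 compared genes past nupr1b had no call. Of the 10 before spns1, 6 were called lower, by 0.39 to 2.17, and 1 higher. Further runs held emc1, phc2a, spsb1 and gpr157, and sgk1, aldh8a1 and hbs1l. The run of cnot6l and mrpl1, with si:dkey-58f10.7, lay 8 compared genes before pias2. The run among the rises held znf711, prps1b and the histone deacetylase gene hdac3. The runs were counted after the calls were known, and their cause was not tested.

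**Figure D3:**
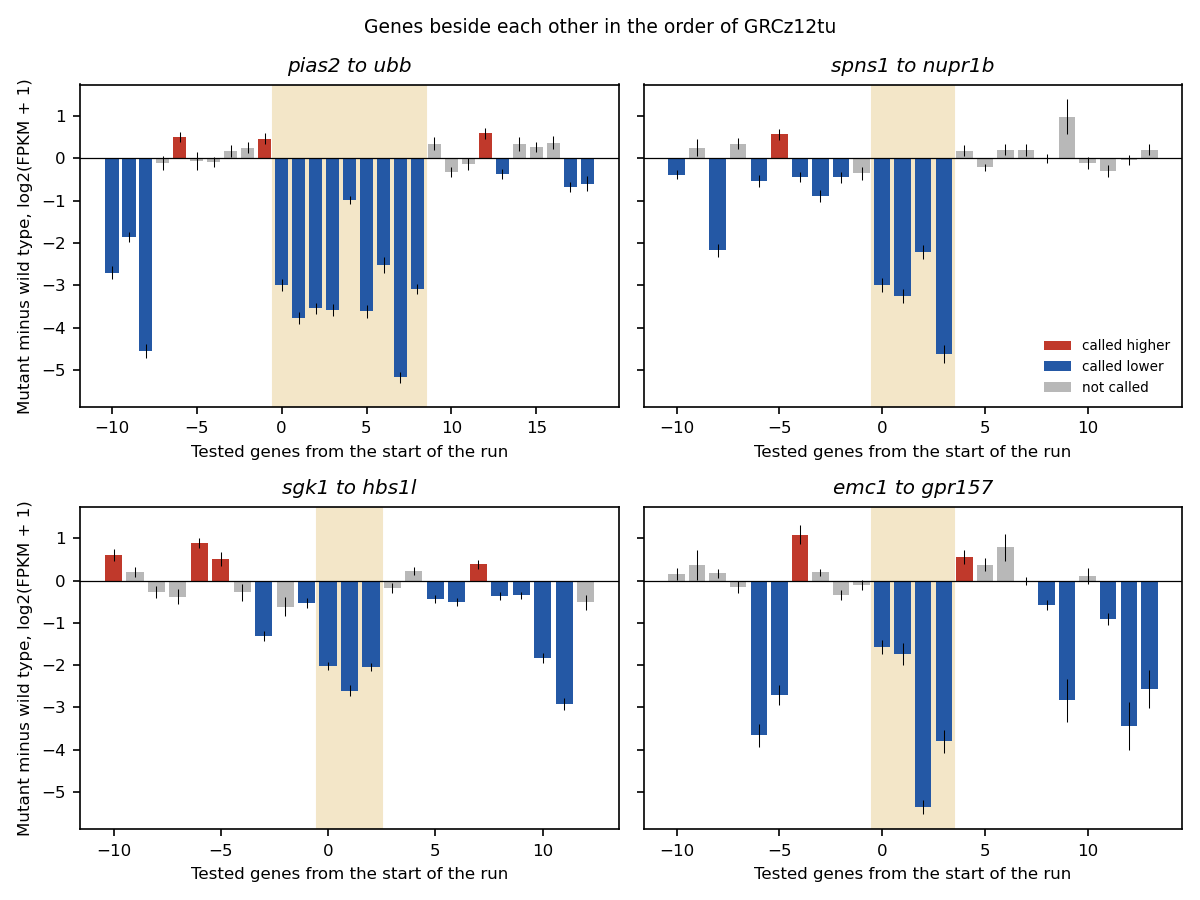
Bars give the mutant minus wild-type log2 difference of consecutive compared genes in the order of GRCz12tu, with the standard error from limma, and the shaded genes form a run. In each panel every shaded bar is called lower, and called falls stand outside the shading too, such as dpm1 (-3.66) before emc1, tbpl1 (-0.53) directly before sgk1 and znf653 (-2.17) before spns1.

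The largest rises belonged to genes without a full name. Of the 15 largest among called genes whose groups did not overlap, 12 had a provisional or shared name, against 4 of the 15 largest falls, and those named here in this paragraph were picked after their values were seen. The gene CABZ01059627.2, described in the table as mucin-5AC, a gel-forming glycoprotein, stood at 0.524, 0.149, 0.194 and 0.0521 FPKM in wild type and 220.1, 194, 236 and 211 FPKM in mutants (log2 difference 7.47, SE 0.13, limma adjusted p = 6.67e-10). Its namesake CABZ01059627.1, for which the table has no description, stood at 83.1, 60.2, 58.9 and 51.0 FPKM and 573, 621, 647 and 709 FPKM. All mutant libraries were several-fold above all wild-type ones in both genes. The undescribed gene si:dkey-9c18.3 rose from 0.262 ± 0.276 to 87.5 ± 44.0 FPKM (SD, n = 4 each; log2 difference 6.05, SE 0.29, limma adjusted p = 6.71e-07). Among the most abundant transcripts, si:ch1073-75o15.3, annotated in the table with carbohydrate binding, rose from 1089 ± 355 to 2176 ± 87.3 FPKM, and the undescribed si:ch211-146l10.7 rose from 495 ± 210.4 to 1478 ± 219.9 FPKM. The gene si:dkey-241l7.5 stood at 288, 15.6, 224 and 552 FPKM in wild type, with library 2 far below the rest, and at 1196, 1087, 1009 and 1191 FPKM in mutants. That last call was lost in 10 of the alternative settings.

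Of genes with a full symbol, mt2 rose most. It encodes a metallothionein, a small protein that binds zinc and copper, and stood at 21.3, 11.1, 7.38 and 12.6 FPKM in wild type and 173, 159, 216 and 185 FPKM in mutants (log2 difference 3.79, SE 0.25, limma adjusted p = 7.52e-06). Every mutant library was above every wild-type one. The acid ceramidase gene asah1a, which in lysosomes splits ceramide, stood at 35.8, 42.6, 37.4 and 31.6 FPKM and 171, 191, 177 and 167 FPKM (log2 difference 2.24, SE 0.10, limma adjusted p = 5.59e-07), with little spread in either group. The transcript of gpx8, a peroxidase of the endoplasmic reticulum, stood at 7.00, 7.48, 7.73 and 7.29 FPKM and 55.6, 51.0, 58.6 and 40.2 FPKM (log2 difference 2.63, SE 0.12, limma adjusted p = 6.15e-07). For hdac3, a histone deacetylase of the NCoR and SMRT co-repressor complexes, the values were 6.06, 5.40, 5.70 and 4.93 FPKM and 25.1, 40.2, 27.7 and 28.8 FPKM (log2 difference 2.25, SE 0.15, limma adjusted p = 7.18e-06). Its wild-type libraries were all under 7 FPKM and its mutant libraries all over 20 FPKM. Transcripts close to absent in wild type were prps1b, which makes the ribose donor of purine synthesis (0.741 ± 0.285 to 12.9 ± 5.76 FPKM), kyat3, an aminotransferase of kynurenine (0.148 ± 0.0491 to 5.99 ± 0.466 FPKM), sox5, a transcription factor (0.0407 ± 0.0237 to 4.25 ± 0.654 FPKM), and opn7d, an opsin (0.197 ± 0.125 to 4.30 ± 0.616 FPKM). The leucine-rich repeat gene lrrc30a was listed at 0 in every wild-type library and at 5.05, 3.0, 4.43 and 3.91 FPKM in mutants.

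Most of the egg coat genes compared were called higher in mutant follicles. Zona pellucida proteins form the envelope around the fish egg and are made by the oocyte as it grows. Of 16 compared genes 9 were called higher (56.25%, beside 10.3% of all genes) and none lower by limma (11 and 0 at an unadjusted p under 0.05). As TPM 11 were called higher, where 14.4% of all genes were. The median log2 difference was 0.91 where all genes had -0.05. Summed over the 16, the level was 2985, 2632, 1865 and 3425 FPKM in wild-type libraries 1 to 4 and 5551, 4884, 6037 and 5146 FPKM in mutant libraries 1 to 4. The groups did not overlap, and wild-type library 3 was the lowest. The transcript of zp3a.1 stood at 489.7, 433, 234 and 459 FPKM in wild type and 990.4, 888, 1119 and 975 FPKM in mutants (log2 difference 1.35, SE 0.22, limma adjusted p = 0.00248). That of zgc:171779, named zp3e in RefSeq, stood at 679.6, 633, 517 and 685 FPKM and 1301, 1164, 1337 and 1173 FPKM (log2 difference 0.99, SE 0.13, limma adjusted p = 0.000681), and that of zp3b at 353, 263, 151 and 297 FPKM and 619, 534, 697 and 616 FPKM (log2 difference 1.27, SE 0.23, limma adjusted p = 0.00406). Each of the 3 was higher in every mutant than in any wild-type library. In the zp2 family, zp2.2 rose from 182 ± 57.2 to 408 ± 61.8 FPKM and zp2.5 from 19.0 ± 11.3 to 155 ± 49.7 FPKM (SD, n = 4 each). For zp2.5, the largest rise of the list, wild-type library 2 at 3.72 FPKM lay below the other wild-type libraries (17.6 to 28.4 FPKM). Near-identical copies make up the zp2 and zp3 families, and how reads shared by them were counted is not stated, so the level of a single copy is uncertain. Counts of called members may for that reason hold copies that are not independent. Outside the list, si:dkeyp-50f7.2, which RefSeq names zpax1, another zona pellucida gene, stood at 847, 540.1, 259.6 and 513 FPKM and 1407, 1312, 1547 and 1320 FPKM (log2 difference 1.49, SE 0.29, limma adjusted p = 0.00628). It too was picked after its values were seen, and its groups did not overlap. With mutant libraries 2 and 4 left out 11 of the 16 listed genes were called higher, and with 1 and 3 left out 6. At an unadjusted p under 0.05 by limma these were 13 and 9. Over all genes 8.88% and 5.02% were called higher in the same order.

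**Figure D4:**
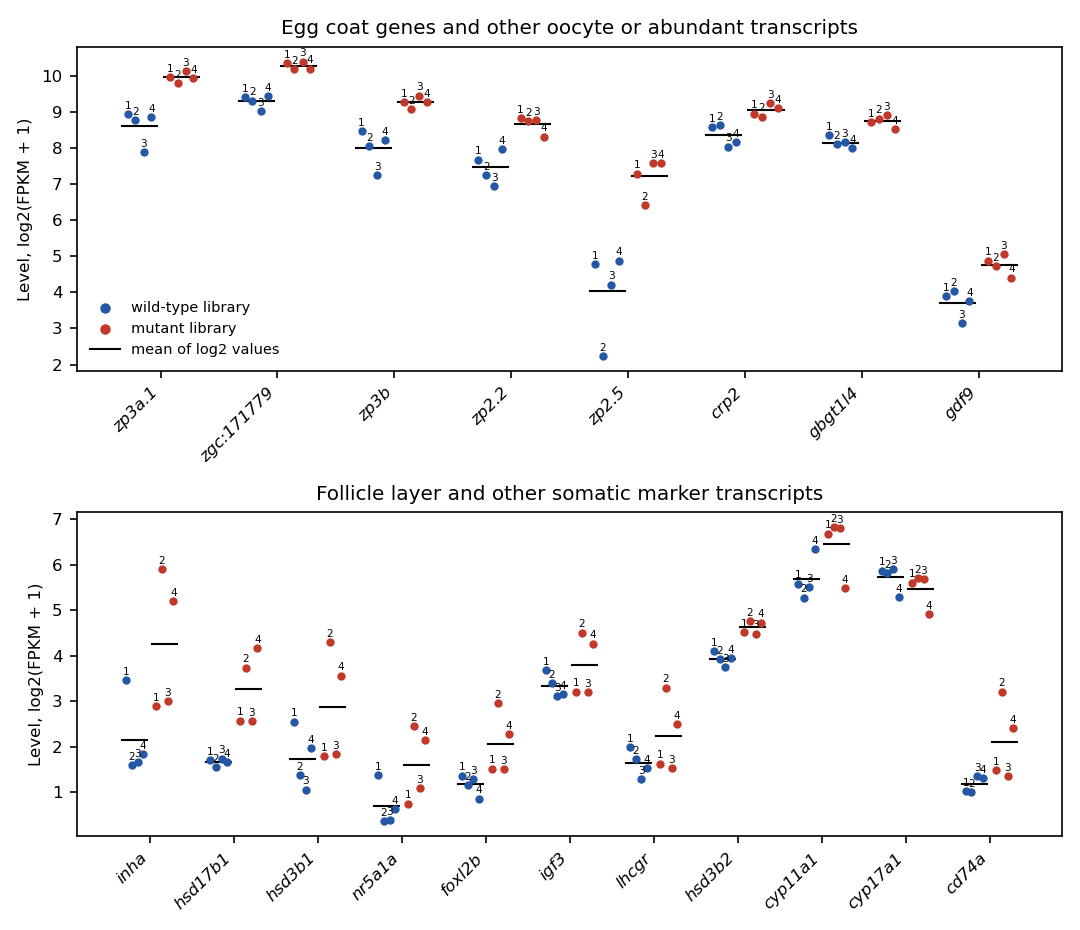
Points are single libraries on the log2(FPKM + 1) scale, numbered within wild type (blue) and mutant (red), with bars at the mean of the log2 values. In the upper panel all mutant libraries lie above all wild-type libraries for each gene; in the lower panel mutant libraries 2 and 4 lie above mutant libraries 1 and 3 for inha, hsd17b1, hsd3b1 and nr5a1a, while for cyp11a1 mutant library 4 is the lowest mutant.

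Most somatic layer markers were low, and several varied between mutant libraries. Of 30 granulosa markers 15 stayed below 1 FPKM in all 8 libraries, among them the gonadotropin receptor gene fshr (0.304 FPKM at most), the aromatase gene cyp19a1a (0.0321) and amh (0.153), and 12 were compared. Summed over the 30, granulosa markers ran from 137 to 263 FPKM in mutants and from 63.1 to 107 FPKM in wild type, and cyp11a1 alone gave 56.7% of this. In mature eggs cyp11a1 stood at 30.8 ± 4.01 FPKM in wild type and 85.8 ± 42.6 FPKM in mutants (SD, n = 5 each). There inha had means of 0.0652 and 0.321 FPKM. The sum is therefore not a measure of granulosa RNA alone. In the 12, the median log2 difference was 0.74 and 1 was called, hsd17b1, which converts estrone to estradiol. It stood at 2.28, 1.92, 2.35 and 2.17 FPKM in wild type and 4.96, 12.4, 4.94 and 17.1 FPKM in mutants (log2 difference 1.60, SE 0.34, limma adjusted p = 0.00860). Every mutant library was higher than every wild-type one, with mutant libraries 2 and 4 far above 1 and 3. The inhibin subunit gene inha stood at 10.1, 2.04, 2.17 and 2.6 FPKM in wild type and 6.45, 59.0, 7.00 and 36.1 FPKM in mutants, and it missed the threshold (limma adjusted p = 0.0512). Mutant libraries 2 and 4 were again the high ones, and wild-type library 1 exceeded mutants 1 and 3. The same order was seen in hsd3b1 (2.46, 18.7, 2.59 and 10.9 FPKM in mutants), nr5a1a (0.682, 4.47, 1.12 and 3.45 FPKM), foxl2b (1.87, 6.76, 1.86 and 3.87 FPKM), lhcgr (2.1, 8.87, 1.88 and 4.67 FPKM) and igf3 (8.28, 21.8, 8.23 and 18.33 FPKM), none of which was called. The side-chain cleavage enzyme gene cyp11a1, the start of steroid synthesis, went another way, at 47.2, 37.9, 44.8 and 80.6 FPKM in wild type and 102, 113, 111 and 43.9 FPKM in mutants (limma adjusted p = 0.102). Its lowest mutant was library 4, inside the wild-type range. As TPM 4 of the 12 were called higher. With mutant libraries 1 and 3 left out 8 were, and with 2 and 4 left out 2 were. Over all genes 14.4% were called higher as TPM, and 5.02% and 8.88% with these pairs left out. The leukocyte and epithelial marker sums were highest in the same mutant libraries 2 and 4, and their part in these levels was not tested.

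Steroid synthesis genes went both ways, with a median of 0.11. Of 20 compared 3 were higher (15%, beside 10.3% of all genes) and 4 lower (20%, beside 16.7%). As TPM 4 were higher and none lower by limma (6 and 3 at an unadjusted p under 0.05), so the lower calls depend on the scaling. Over all genes 14.4% were higher and 9.62% lower as TPM. The transcript of hsd3b2, a steroid dehydrogenase, rose from 14.4 ± 1.58 to 23.8 ± 2.39 FPKM and that of tspo, which binds cholesterol at mitochondria, from 16.5 ± 1.57 to 24.8 ± 3.17 FPKM, while that of npc2, a lysosomal cholesterol carrier, fell from 314 ± 40.6 to 224 ± 10.4 FPKM (SD, n = 4 each). Of theca and stromal markers 6 were compared and thy1, a surface glycoprotein, was called lower (6.46, 11.5, 11.1 and 6.41 FPKM in wild type, 1.54, 0.572, 2.06 and 3.86 FPKM in mutants). The theca enzyme gene cyp17a1 had 52.7 ± 9.72 FPKM in wild type and 44.7 ± 10.4 FPKM in mutants (limma adjusted p = 0.390). Of 22 receptor genes 4 were higher (18.2%) and 3 lower (13.6%), and as TPM 6 and 0. The estrogen receptor gene esr2a was at 1.06, 1.69, 1.42 and 1.21 FPKM and 2.83, 3.38, 2.24 and 4.15 FPKM (log2 difference 0.81, SE 0.17, limma adjusted p = 0.00707), the glucocorticoid receptor gene nr3c1 at 0.477 ± 0.131 and 1.42 ± 0.165 FPKM, and the insulin receptor gene insra at 4.19 ± 0.580 and 7.25 ± 0.188 FPKM. All 3 were higher in every mutant library than in any wild-type library.

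**Figure D5:**
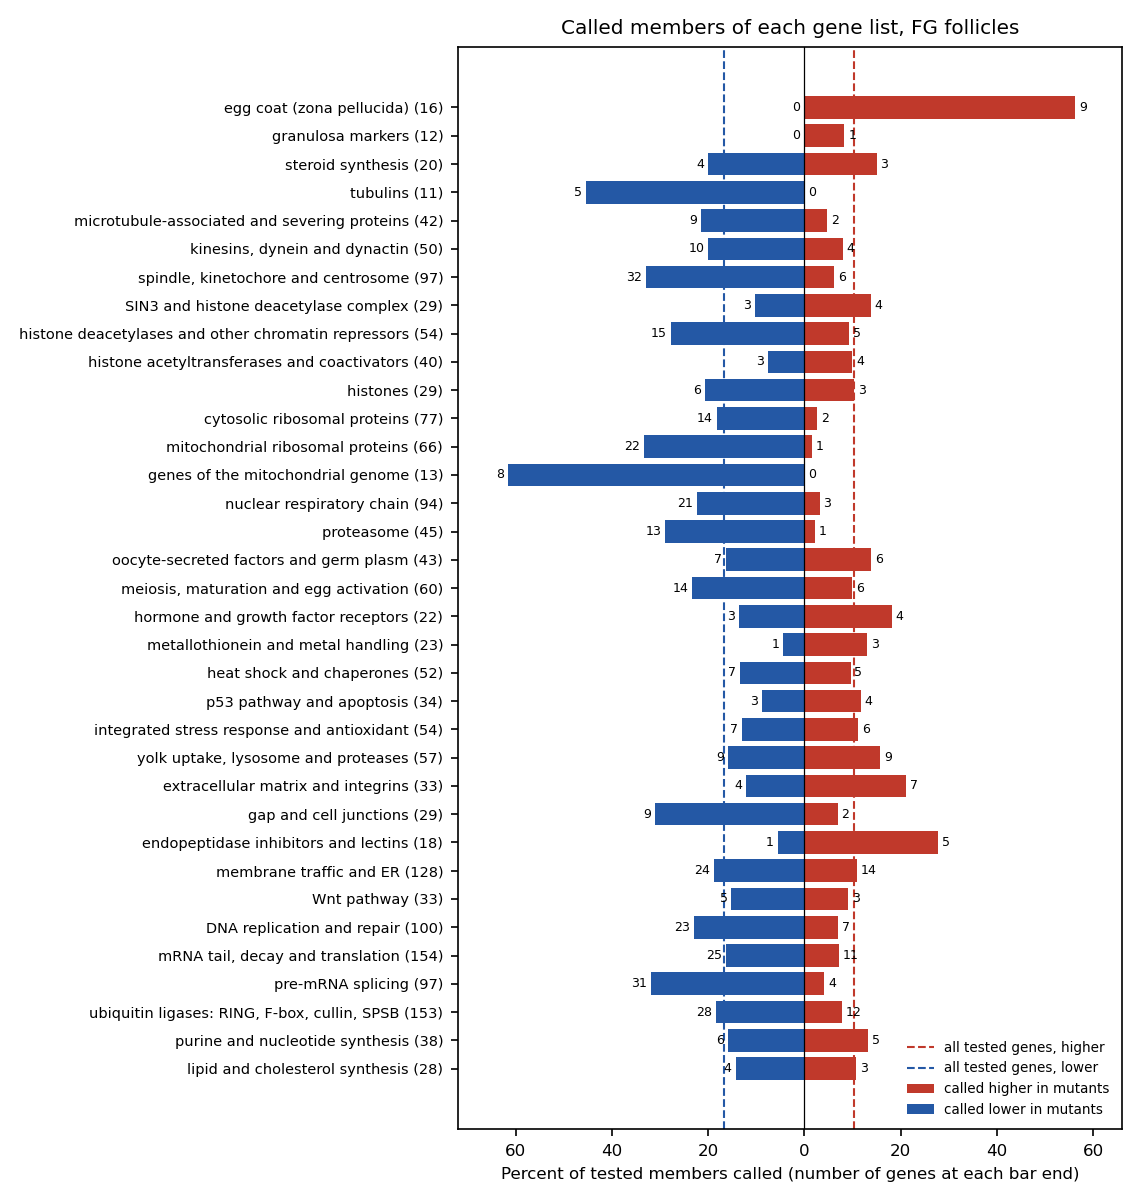
Bars give the percent of compared members of each gene list that limma called higher (red, to the right) or lower (blue, to the left) in mutant FG follicles, with the number of genes at the bar end and the number compared in brackets. Dashed lines are the shares over all compared genes, 10.3% higher and 16.7% lower, and lists with at least 10 compared genes are drawn.

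The title given to the study states that microtubule genes were lower in mutants, and 4 lists bear on it. Microtubules are built from alpha and beta tubulin, and they form the meiotic spindle. Of 11 tubulin genes 5 were called lower (45.5%, beside 16.7% of all genes) and none higher by limma, with a median of -0.48. At an unadjusted p under 0.05 these were 7 and 0. As TPM the calls were 5 and 0 (6 and 0 at an unadjusted p under 0.05), where 9.62% of all genes were lower. Summed, tubulins stood at 1887, 2442, 2169 and 2246 FPKM in wild type and 1819, 1468, 1888 and 1695 FPKM in mutants, where mutant library 3 reached the level of wild-type library 1 and the groups were otherwise apart. With mutant libraries 2 and 4 left out 3 tubulin genes were called lower, and with 1 and 3 left out 1. At an unadjusted p under 0.05 by limma these were 6 and 5. Lower calls over all genes also dropped, to 12.6% and 8.44% in the same order. The abundant alpha tubulin gene tuba4l stood at 726, 819.7, 725 and 838 FPKM in wild type and 556, 494, 608 and 573 FPKM in mutants (log2 difference -0.48, SE 0.11, limma adjusted p = 0.0120). That of gamma tubulin, tubg1, which starts new microtubules, stood at 12.7, 17.5, 18.8 and 15 FPKM and 8.57, 10.1, 9.47 and 11.8 FPKM (log2 difference -0.62, SE 0.14, limma adjusted p = 0.0122), and that of tuba8l2 at 15.6, 20.7, 16.4 and 25.3 FPKM and 6.05, 13, 6.04 and 5.52 FPKM. These 3 were lower in every mutant than in any wild-type library. The groups overlapped in tubb5, which fell from 10.1 ± 5.82 to 1.88 ± 1.11 FPKM. The most abundant beta tubulin, tubb4b, had 704 ± 71.1 FPKM in wild type and 604 ± 48.0 FPKM in mutants and was not called (limma adjusted p = 0.184).

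Spindle, kinetochore and centrosome genes were lower more often than higher, 32 (33.0%, beside 16.7% of all genes) against 6 (6.19%, beside 10.3%) of 97, with a median of -0.24. As TPM these counts were 15 and 10, where 9.62% of all genes were lower and 14.4% higher, with a median of -0.12. With mutant libraries 2 and 4 left out 17 were lower, and with 1 and 3 left out 12, where 12.6% and 8.44% of all genes were lower. At an unadjusted p under 0.05 by limma these were 31 and 36, beside 38 with all libraries. The higher calls were 3 without mutant library 1, mutant library 3 or wild-type library 2. The kinetochore gene ndc80, which holds microtubules to chromosomes, stood at 80.1, 80.8, 66.8 and 90.7 FPKM in wild type and 47.0, 48.0, 44.1 and 45.8 FPKM in mutants (log2 difference -0.76, SE 0.10, limma adjusted p = 0.000800). The centrin gene cetn4 fell from 98.3 ± 12.8 to 52.2 ± 11.1 FPKM and the abscission gene cep55l from 58.6 ± 6.89 to 38.3 ± 2.52 FPKM. Against this, zgc:55582, which RefSeq names cdk5rap2, a centrosome organiser, rose from 1.12 ± 0.251 to 3.68 ± 1.01 FPKM (SD, n = 4 each). Of 42 microtubule-associated and severing genes 9 were lower (21.4%) and 2 higher (4.76%), with a median of -0.13, and 0.01 as TPM. The deepest fall of these was that of map7d3, at 2.90, 2.63, 3.45 and 2.74 FPKM and 0.182, 0.259, 0.201 and 0.213 FPKM (log2 difference -1.69, SE 0.11, limma adjusted p = 7.64e-06). The katanin gene katnal1, whose product cuts microtubules, fell from 14.8 ± 1.78 to 7.32 ± 0.545 FPKM. The gene mtus1a rose from 3.99 ± 0.553 to 11.8 ± 1.28 FPKM. Of 50 motor genes 10 were lower (20%) and 4 higher (8%), near the shares of all genes, but 2 and 6 as TPM. The lower calls were 5 without mutant library 2 or 3, 4 without wild-type library 2 and 6 without wild-type library 4. The heavy chain gene of cytoplasmic dynein, dync1h1, rose, at 1.92, 0.737, 0.946 and 0.866 FPKM and 6.14, 4.78, 6.07 and 2.15 FPKM (log2 difference 1.41, SE 0.28, limma adjusted p = 0.00588), and kif7, a kinesin of Hedgehog signalling, fell from 8.59 ± 1.07 to 4.72 ± 0.570 FPKM.

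Genes of the mitochondrial genome that passed the test were lower in mutant follicles. Of its 13 protein genes 8 were called lower as deposited (61.5%, beside 16.7% of all genes) and 5 as TPM, where 9.62% of all genes were lower. All 13 had a negative difference as deposited, with a median of -0.70 (-0.55 as TPM). With quantile normalization 4 of the 13 had a difference above 0, from 0.03 to 0.11, without a call, mt-co1 (0.10) among them. Summed, they stood at 45196, 45923, 47936 and 60463 FPKM in wild type and 23685, 35924, 22180 and 42057 FPKM in mutants. The groups did not overlap, as was so for summed FPKM over all genes, and mutant libraries 1 and 3 were lower than 2 and 4. The subunit gene mt-nd6 of complex I stood at 383, 281, 501 and 469 FPKM and 166, 224, 154 and 241.2 FPKM (log2 difference -1.04, SE 0.21, limma adjusted p = 0.00620), and the ATP synthase gene mt-atp8 at 5345, 3699, 3989 and 6116 FPKM and 2759, 2390, 1807 and 2860 FPKM (log2 difference -0.96, SE 0.23, limma adjusted p = 0.0133). In both every mutant library was below every wild-type one. Of the oxidase genes, mt-co3 was called (log2 difference -0.72, SE 0.21, limma adjusted p = 0.0283), a call lost in 9 of the alternative settings, and mt-co1 had a like difference and was not called (log2 difference -0.63, SE 0.26, limma adjusted p = 0.0990). These calls dropped with some single libraries left out, to 2 without mutant library 1 and 3 without mutant library 3. They were 3 without wild-type library 2 or wild-type library 4, and 4 without wild-type library 3. Lower calls over all genes dropped too, from 1680 to 1208, 1215, 1259, 1363 and 1373 in the same order. At an unadjusted p under 0.05 by limma, 8 of the 13 were lower without mutant library 1 or 3, beside 11 with all libraries. With mutant libraries 2 and 4 left out all 13 were called lower, and with 1 and 3 left out none were (limma, at an unadjusted p under 0.05 3 of 13). Over all genes 12.6% and 8.44% were called lower in the same order.

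Nuclear genes for the mitochondrion were also called lower more often than higher, as all compared genes were. Of 66 genes for the mitochondrial ribosome 22 were lower (33.3%, beside 16.7% of all genes) and 1 higher, 14 and 1 as TPM, with a median of -0.23. Beside mrpl1 and mrps22, mrpl54 stood at 25.6, 35.4, 22.0 and 49.8 FPKM in wild type and 2.0, 2.85, 2.09 and 2.01 FPKM in mutants (log2 difference -3.34, SE 0.23, limma adjusted p = 9.88e-06), and mrpl30 at 18.7, 22.1, 20.6 and 24.3 FPKM and 4.23, 4.57, 6.49 and 4.42 FPKM (log2 difference -1.93, SE 0.14, limma adjusted p = 1.60e-05). Neither gene's groups overlapped. Of 94 nuclear genes of the respiratory chain 21 were lower (22.3%) and 3 higher, and 11 and 5 as TPM, where 9.62% of all genes were lower. The ATPase inhibitor gene atp5if1a fell from 196 ± 20.4 to 98.2 ± 12.7 FPKM and uqcrb of complex III from 67.1 ± 6.0 to 42.3 ± 2.12 FPKM. Of 77 cytosolic ribosomal protein genes 14 were lower and 2 higher (6 and 2 as TPM), a lower share of 18.2% beside 16.7% of all genes. Without wild-type library 1 there were 28 lower calls, and without mutant library 1 or 2 or wild-type library 2 or 4 there were 9, 8, 7 and 8. Lower calls over all genes moved the same way, from 1680 to 1819 without wild-type library 1. In the other settings they were 1208, 1263, 1259 and 1363 in the same order. Among the 14 lower genes were rplp2l, falling from 279.7 ± 52.8 to 155 ± 13.2 FPKM, and rpl13, from 188 ± 27.6 to 128 ± 8.24 FPKM.

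Of 29 genes of the SIN3 and histone deacetylase complex 4 were higher (13.8%, beside 10.3% of all genes) and 3 lower (10.3%, beside 16.7%). Their median was 0.00, and sinhcaf itself was among the lower ones. The counts were 4 and 1 as TPM. The higher calls by limma were 0 without mutant library 1 or 3 (4 at an unadjusted p under 0.05 in each) and 2 without mutant library 2 or wild-type library 2, 3 or 4. The lower calls were 1 without mutant library 2 or wild-type library 2 and 2 without mutant library 1 or 3 or wild-type library 1 or 3. The scaffold gene sin3b of this complex stood at 5.44, 4.35, 3.39 and 4.13 FPKM in wild type and 7.89, 6.48, 7.81 and 5.86 FPKM in mutants (log2 difference 0.59, SE 0.15, limma adjusted p = 0.0195), and brms1la at 22.2 ± 3.0 and 30.0 ± 1.33 FPKM. The accessory gene sap18, with 130.3 ± 24.3 and 81.5 ± 17.0 FPKM, was lower, and its groups overlapped. Among 54 other deacetylases and chromatin repressors 15 were lower (27.8%) and 5 higher (9.26%). As TPM these were 5 and 6, where 9.62% of all genes were lower and 14.4% higher. The lower calls were also 5 without mutant library 1, 2 or 3, 7 without wild-type library 2 and 8 without wild-type library 3, while the higher calls were 3 without any of the first 4 of these libraries. The heterochromatin protein gene cbx5 stood at 58.8, 46.2, 47.5 and 50.1 FPKM and 28.3, 31.3, 27.8 and 29.6 FPKM (log2 difference -0.77, SE 0.10, limma adjusted p = 0.000644). The Polycomb gene bmi1b fell from 112 ± 8.03 to 80.1 ± 3.81 FPKM, while ezh2, the methyltransferase of the other Polycomb complex, rose from 14.8 ± 3.30 to 23.5 ± 2.5 FPKM (SD, n = 4 each). Of 40 acetyltransferase and coactivator genes 4 were higher (10%) and 3 lower (7.5%). The deepest was sgf29, a reader of the SAGA complex, which stood at 3.80, 6.15, 5.46 and 5.88 FPKM and 0.189, 0.342, 0.313 and 0.577 FPKM (log2 difference -2.21, SE 0.16, limma adjusted p = 1.30e-05). Of 29 histone genes 3 were higher (10.3%) and 6 lower (20.7%). The oocyte linker histone h1m stood at 1155, 1312, 1303 and 1436 FPKM and 898, 894, 853 and 871 FPKM (log2 difference -0.56, SE 0.11, limma adjusted p = 0.00647), the variant h2afvb fell from 100.4 ± 3.71 to 62.5 ± 5.22 FPKM, and the replacement histone h3f3c rose from 6.42 ± 2.05 to 14.8 ± 0.987 FPKM. Libraries were made from polyadenylated RNA, in which most replication-dependent histone transcripts are poorly captured.

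Transcripts stored by the oocyte went both ways. Of 43 oocyte-secreted and germ plasm genes 6 were higher (13.95%) and 7 lower (16.3%), and 8 and 3 as TPM. These shares were near those of all compared genes, 10.3% higher and 16.7% lower (14.4% and 9.62% as TPM). The RNA-binding gene zar1l, which acts on stored RNA of the oocyte, stood at 72.3, 70.24, 81.1 and 73.3 FPKM in wild type and 36.2, 27.2, 33.7 and 29.3 FPKM in mutants (log2 difference -1.21, SE 0.11, limma adjusted p = 4.79e-05). The oogenesis-related gene org stood at 529, 569, 565 and 601 FPKM and 325, 314, 359 and 322 FPKM (log2 difference -0.78, SE 0.09, limma adjusted p = 0.000447). The growth factor gene gdf9, which the oocyte sends to the follicle layer, went up, at 13.8, 15.26, 7.87 and 12.4 FPKM and 28.4, 25.3, 32.1 and 20.2 FPKM (log2 difference 1.06, SE 0.20, limma adjusted p = 0.00519). In these 3 the groups did not overlap. Of 60 genes of meiosis, maturation and egg activation 14 were lower (23.3%) and 6 higher (10%), and 12 and 10 as TPM. The anaphase-promoting complex gene cdc26 stood at 9.69, 12.6, 13.2 and 14 FPKM and 0.358, 0.0485, 0.0534 and 0.559 FPKM (log2 difference -3.43, SE 0.18, limma adjusted p = 1.11e-06), so that all mutant libraries were near absent. The kinase gene wee2, which in mice holds the oocyte in meiotic arrest, rose from 15.8 ± 0.815 to 33.3 ± 6.99 FPKM (log2 difference 1.01, SE 0.14, limma adjusted p = 0.00109), and camk2g1, a calcium-dependent kinase, fell from 30.5 ± 1.2 to 18.6 ± 1.67 FPKM. Of 100 genes of DNA replication and repair 23 were lower and 7 higher, and 14 and 9 as TPM (4 higher without mutant library 1, mutant library 3 or wild-type library 2), with xrcc4, which joins broken ends, falling from 27.2 ± 3.70 to 15.4 ± 1.05 FPKM, apex2, a repair nuclease, from 48.9 ± 2.90 to 31.6 ± 2.37 FPKM, and the polymerase gene pold1 rising from 8.18 ± 1.08 to 20.1 ± 1.36 FPKM.

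Splicing and proteasome genes that passed the test were mostly lower. Of 97 splicing genes 31 were lower (32.0%, beside 16.7% of all genes) and 4 higher, 20 and 7 as TPM, with a median of -0.25. Summed, they stood at 5239, 5484, 5398 and 5493 FPKM in wild type and 4331, 4110, 4180 and 4275 FPKM in mutants, without overlap. Summed FPKM over all genes was lower in mutants too, likewise without overlap. The spliceosome gene snrpa1 stood at 148, 165, 159.8 and 137 FPKM and 91.7, 94.5, 87.5 and 95.0 FPKM (log2 difference -0.72, SE 0.09, limma adjusted p = 0.000452). The gene prpf18, of the second splicing step, was at 17.9, 19.2, 19.3 and 18.5 FPKM and 7.14, 3.28, 7.04 and 3.30 FPKM, where mutant libraries 2 and 4 were lower than 1 and 3. Of a pair of related RNA-binding genes, hnrnpa0l fell from 65.8 ± 3.54 to 29.1 ± 2.78 FPKM and hnrnpa0a rose from 0.283 ± 0.138 to 2.63 ± 0.767 FPKM. Of 154 genes of messenger RNA tails, decay and translation 25 were lower (16.2%) and 11 higher (7.1%, beside 10.3% of all genes). As TPM these were 14 and 21, where 9.62% of all genes were lower and 14.4% higher. The deadenylase gene cnot6l (2.81 ± 0.400 to 0.0440 ± 0.0438 FPKM) and the decapping scaffold gene edc4 (1.79 ± 0.298 to 0.0224 ± 0.0106 FPKM) were both low in wild type and close to absent in mutants. Of 45 proteasome genes 13 were lower (28.9%) and 1 higher (2.2%), 5 and 3 as TPM. The lower calls were 8 without mutant library 2 or wild-type library 2. The core subunit gene psma4 stood at 85.3, 103, 93.8 and 95.5 FPKM and 53.7, 44.5, 58.2 and 62.8 FPKM (log2 difference -0.78, SE 0.12, limma adjusted p = 0.00157), and psmb5 at 9.18, 13.7, 13.1 and 8.95 FPKM and 0.327, 2.53, 0.198 and 5.11 FPKM (log2 difference -2.31, SE 0.47, limma adjusted p = 0.00715). For psmb5 mutant libraries 2 and 4 lay above 1 and 3. Of 153 ubiquitin ligase genes 28 were lower and 12 higher, but 16 and 20 as TPM, with rnf41 (6.76 ± 1.14 to 0.0185 ± 0.00764 FPKM) and klhl13 (12.7 ± 5.01 to 0.243 ± 0.181 FPKM) among those lost.

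Stress genes were called in both directions, where 10.3% of all compared genes were higher and 16.7% lower (14.4% and 9.62% as TPM). Of 52 heat shock and chaperone genes 5 were higher (9.6%) and 7 lower (13.5%), and 8 and 4 as TPM. Neither share as deposited was above that of all genes. The mitochondrial chaperone gene hspa9 stood at 30.6, 25.8, 26.6 and 25.8 FPKM in wild type and 63.9, 78.3, 61.7 and 62.3 FPKM in mutants (log2 difference 1.26, SE 0.10, limma adjusted p = 3.46e-05), without overlap. Of 34 genes of the p53 pathway 4 were higher (11.8%) and 3 lower (8.8%). The p53 target gene ccng1 stood at 22.0, 20.2, 19.2 and 20.4 FPKM and 5.15, 3.89, 4.14 and 4.28 FPKM (log2 difference -2.0, SE 0.11, limma adjusted p = 1.90e-06). It was one member of a run of 5 neighbours that fell. Of 54 genes of the integrated stress response and antioxidant defence 6 were higher and 7 lower, and 9 and 5 as TPM. Peroxidase genes were called both ways, with gpx8 higher as given above, gpx4a lower (7.47 ± 0.943 to 3.84 ± 0.423 FPKM) and prdx6 lower (26.8 ± 4.30 to 13.6 ± 1.38 FPKM). Of 23 metal genes 3 were higher and 1 lower. Beside the rise of mt2, the copper importer gene slc31a1 fell, at 23.8, 20.01, 16.9 and 18.4 FPKM and 4.32, 4.14, 4.13 and 5.02 FPKM (log2 difference -1.94, SE 0.13, limma adjusted p = 7.52e-06), and it too lay in a run of falls.

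Lysosome, matrix, junction and metabolic genes gave single large changes. Over all compared genes 10.3% were higher and 16.7% lower, and 14.4% and 9.62% as TPM. Of 57 genes of yolk uptake, lysosome and proteases 9 were higher and 9 lower (15.8% each), and 12 and 6 as TPM. The cathepsin B gene ctsba, a lysosomal protease and among the most abundant transcripts, stood at 1365, 1353, 1302 and 1248 FPKM in wild type and 424, 419, 433 and 463 FPKM in mutants (log2 difference -1.60, SE 0.10, limma adjusted p = 4.47e-06). The groups were far apart, with little spread in either. The proton pump gene atp6v0e1 fell from 84.5 ± 21.4 to 34.0 ± 2.22 FPKM, and spns1 from 7.24 ± 1.54 to 0.0178 ± 0.0150 FPKM. Of 33 matrix and integrin genes 7 were higher (21.2%) and 4 lower (12.1%), with a median of 0.24. The higher calls were 4 without mutant library 2 or wild-type library 3. The laminin gene lama1 stood at 0.301, 0.410, 0.448 and 0.364 FPKM and 1.69, 2.23, 1.53 and 1.28 FPKM (log2 difference 0.95, SE 0.13, limma adjusted p = 0.00101), while timp2a, an inhibitor of matrix proteases, stood at 10.8, 4.74, 8.78 and 4.68 FPKM and 0.673, 1.06, 0.778 and 2.33 FPKM (log2 difference -1.88, SE 0.29, limma adjusted p = 0.00207). Of 29 junction genes 9 were lower (31.0%) and 2 higher (6.9%), 3 and 2 as TPM. The lower calls were 4 without mutant library 3 and 5 without mutant library 4 or wild-type library 2. The claudin genes cldng (545 ± 35.7 to 354 ± 16 FPKM) and cldn12 (20.3 ± 4.54 to 9.71 ± 0.758 FPKM) were lower. Of 18 endopeptidase inhibitor and lectin genes 5 were higher (27.8%) and 1 lower (5.56%). The higher calls were 2 without mutant library 1 or 3 and 3 without wild-type library 3. Among them cst14a.2, a cystatin, rose from 82.9 ± 7.78 to 115 ± 15.7 FPKM. Of 128 membrane traffic genes 14 were higher (10.9%) and 24 lower (18.75%), near the shares of all genes, and 17 and 15 as TPM. The higher ones included the recycling GTPase gene rab11a, at 8.96, 6.6, 7.95 and 7.06 FPKM and 18.2, 19.9, 19.8 and 21.1 FPKM (log2 difference 1.27, SE 0.11, limma adjusted p = 5.80e-05). Of 33 Wnt pathway genes 3 were higher (9.09%) and 5 lower (15.15%), and 4 and 2 as TPM. The receptor gene fzd5 rose from 1.43 ± 0.470 to 3.61 ± 0.649 FPKM. Of 38 purine genes 5 were higher (13.2%) and 6 lower (15.8%), 7 and 4 as TPM, and urahb, an enzyme of uric acid breakdown, fell from 5.83 ± 1.09 to 0.160 ± 0.179 FPKM. Of 28 lipid genes 3 were higher and 4 lower, 4 and 3 as TPM, with hmgcrb, the rate-limiting enzyme of cholesterol synthesis, falling from 28.6 ± 4.03 to 16 ± 1.21 FPKM and the desaturase gene scd rising from 1.66 ± 1.02 to 6.5 ± 1.95 FPKM.

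Mature eggs, from 5 libraries of each genotype that share none with the follicles, were set beside these results with a fit over all 18 libraries and 10547 genes. Whether eggs and follicles came from the same females is not stated. In eggs 775 genes were called higher (7.35%) and 813 lower (7.71%), and the genotype difference itself differed between stages in 733 genes (6.95%). Of the 1037 genes higher in mutant follicles, 266 were also called higher in eggs (25.7% of them, and 37.8% of the 704 called higher in eggs among genes compared in follicles) and 3 lower. Of the 1680 lower genes 440 were also lower in eggs (26.2%, and 58.8% of 748) and 35 higher. Of the 560 called by at least 1 in follicles, 270 (48.2%) were called the same way in eggs and 1 the other way.

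All 22 lost genes and both gained ones were called the same way in eggs, but not all were lost there. For klhl13 mutant eggs had a mean of 6.78 and a highest value of 22.04 FPKM, where the lowest wild-type egg library had 16.12 FPKM. Others had little to lose, such as nupr1b, foxa (0.506 FPKM) and ptx3b (0.563 FPKM), under 1 FPKM on average in wild-type eggs. The transcript of gtsf1 (zgc:56699) was at 279 ± 26.1 FPKM in wild-type eggs and 1.03 ± 1.65 FPKM in mutant eggs (SD, n = 5 each), and that of spsb1 at 219 ± 59.99 and 1.48 ± 0.574 FPKM. For nupr1b wild-type eggs had 0.353 ± 0.113 FPKM and mutant eggs were listed at 0, and the follicle minus egg difference was -4.19 (limma adjusted p = 1.41e-09). For mrpl1 it was -3.82 (limma adjusted p = 2.32e-08), with 0.800 ± 0.576 FPKM in wild-type eggs. Wild-type follicles had 24.5 FPKM of nupr1b and 32.8 FPKM of mrpl1. With mutants near 0 at each stage, these stage differences mostly reflect the wild-type levels, not a mutant effect that differs. The metallothionein gene mt2 went from 1.54 ± 0.844 to 5.62 ± 2.26 FPKM in eggs, and the follicle minus egg difference was 2.43 (limma adjusted p = 0.000712). Of the 13 mitochondrial genome genes 12 differed between stages, all with the follicle change below the egg change. In eggs 1 of the 13 was called, higher in mutants. Of 79 cytosolic ribosomal protein genes 35 were called lower in eggs, and in 3 the stage difference passed, with the follicle change above the egg change. Of 16 egg coat genes 6 were called higher in eggs, at far lower levels (zp3b 9.54 ± 1.42 FPKM in wild-type and 18.7 ± 5.44 FPKM in mutant eggs, SD, n = 5 each), and none had a stage difference that passed. The kinetochore gene ndc80 was at 142 ± 12.7 FPKM in wild-type and 144 ± 19.9 FPKM in mutant eggs, and its stage difference was -0.77 (limma adjusted p = 0.00594). For tubg1, which fell in eggs as well (-0.67, limma adjusted p = 0.00103), that difference was 0.05 (limma adjusted p = 0.905).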

How the data were processed

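Libraries were prepared with a stranded poly(A) kit, per the labels' protocols, and the submitters' processing notes name Trimmomatic, HISAT2, Cufflinks, HTSeq and the build GRCz11, with no versions or roles. The authors deposited FPKM per gene; no counts were used here, and whole reads were not recovered. Genes with at least 1 FPKM in at least 4 of the 8 follicle libraries were tested on log2(FPKM + 1), pseudocount 1, with limma 3.58.1 in R 4.3.3 (lmFit and eBayes with trend, 6 residual degrees of freedom, Benjamini-Hochberg adjustment over 10053 genes). Folds on this scale understate changes of low genes. The egg contrast and the stage difference came from a fit over all 18 libraries, with 14 residual degrees of freedom. Single values had two-sided exact permutation tests. The fit was also tested on simulated data. Of the listed genes 1438 matched by symbol and 56 by RefSeq synonym, and 91 were not matched. Members and gene lists were chosen with earlier results of these data known. Genes named are the 15 largest rises and falls with a full symbol and no overlap, those of the 8 largest FPKM differences each way, up to 4 called members of smallest adjusted p of each list (all tested members of lists of at most 15), and sinhcaf; 118 of these 198 are given for room, and 8 others, picked after their values were seen. Alternatives covered scaling, pseudocount, filters, variance settings and left-out libraries. Some items are not reported here.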

Additional observations from a re-analysis of the deposited data

Results flagged for a closer look

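A library is listed where its gap to the nearest of the other 3 of its genotype was too large a part of the group's range by Dixon's test at the 95% level. Of 260 such groups examined, 24 passed this limit, and chance alone passes about 1 in 20 groups. Mutant library 2 held 10120 genes with at least 1 FPKM, where the other mutants held 9854 to 9893. Wild-type library 1 stood apart with inha (10.1 FPKM, high), npc2 (375 FPKM, high), atp5if1a (165 FPKM, low) and cst14a.2 (71.4 FPKM, low). Wild-type library 2 stood out in ppp2r5ca (5.44 FPKM, high). Wild-type library 3 lay away from the rest of its genotype in prps1b (0.316 FPKM, low). Wild-type library 4 stood apart with sde2 (6.81 FPKM, high), mt-co3 (4223 FPKM, high), brms1la (17.7 FPKM, low) and cnot6l (3.4 FPKM, high). Mutant library 1 stood out in rnf41 (0.0299 FPKM, high). Mutant library 2 lay away from the rest of its genotype in mettl2a (3.54 FPKM, high), tuba8l2 (13 FPKM, high), mrpl54 (2.85 FPKM, high), hspa9 (78.3 FPKM, high), hmgcrb (14.2 FPKM, low) and si:dkey-9c18.3 (153 FPKM, high). Mutant library 3 stood apart with mrpl30 (6.5 FPKM, high). Mutant library 4 stood out in kansl2 (23.5 FPKM, high), gpr157 (0.0537 FPKM, high), idh3g (11.5 FPKM, high), cyp11a1 (43.9 FPKM, low) and cyp17a1 (29.2 FPKM, low).

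For 43 of the 126 genes given, limma's test of the difference between stages passed in the fit over 18 libraries. Each value here is the mutant minus wild-type log2 difference in follicles minus that in eggs. Where mutants were close to missing at each stage, as for nupr1b, mrpl1, riok2 and grasp, it mostly reflects wild-type levels. The same holds for spns1, at 7.24 FPKM in wild-type follicles and 84.55 FPKM in wild-type eggs. Genes close to absent in eggs can change little there on the log2(FPKM + 1) scale, so their stage differences partly reflect low egg levels. Such were hsd17b1 (0.0317 FPKM in wild-type and 0.0947 FPKM in mutant eggs) and opn7d (0.0299 and 0.437 FPKM). The highest were those of CABZ01059627.2 (4.24), spns1 (2.5), mt2 (2.43), ppp2r5ca (2.08) and opn7d (1.7). They were followed by hsd17b1 (1.52), urahb (1.44), dync1h1 (1.38), scd (1.34) and CABZ01059627.1 (1.33). Further values above 0 were those of si:dkeyp-50f7.2 (1.15), spsb1 (1.1), zgc:55582 (1.09), rnf41 (1.09) and fzd5 (0.90). Smaller values above 0 belonged to fancg (0.90), gdf9 (0.83), esr2a (0.71), sox5 (0.69) and nr3c1 (0.60). The lowest were those of nupr1b (-4.19), mrpl1 (-3.82), riok2 (-2.54), sgf29 (-1.86) and grasp (-1.76). Next came vcp (-1.66), mt-nd6 (-1.43), cnot6l (-1.14), timp2a (-1.13) and mt-co3 (-1.07). Further values below 0 were those of cetn4 (-1.03), mt-atp8 (-1.0), psma4 (-0.97), mt-co1 (-0.96) and rab11a (-0.94). They continued with cldn12 (-0.91), mrps22 (-0.86), cdc26 (-0.82), ndc80 (-0.77) and h2afvb (-0.70). Closer to 0 were h1m (-0.64), edc4 (-0.61) and map7d3 (-0.53).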

How the results depend on the processing

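The number of genes called higher, 1037, kept within 1.5 times of itself in most of 24 alternative settings. It was 609 with a filter of at least 5 FPKM, under which 6534 genes were tested, 1772 with array weights, 672 with mutant libraries 1 and 3 averaged, and 505 with both left out. Leaving out a library at a time gave 646 to 1070. The number called lower, 1680, was 967 as TPM and 848 without mutant libraries 1 and 3, and it ran from 1208 to 1819 with a library left out. Without any filter 21159 genes were tested, 1002 called higher and 1574 lower. The fit with a replicate block gave 718 higher and 1175 lower genes. Deviations of same-numbered libraries from their group means correlated at -0.08, -0.13, -0.02 and -0.03 across genes. No mutant library correlated best with the wild-type library of its own number. Correlations among so few libraries cannot decide whether library numbers pair the samples. Of the 116 called genes given, 89 were called in every setting and 1 was not called under the replicate block. Most of these were chosen for a large difference or a small p in the main fit, which favours such stability. Over all main calls, the replicate block kept 693 of the 1037 higher and 1153 of the 1680 lower. With mutant libraries 1 and 3 left out, 378 and 778 were kept. With a library left out, the sinhcaf difference ran from -1.19 to -0.75, that of summed FPKM from -36970 to -26620, and that of the mitochondrial percentage from -5.90 to -3.86. The exact p then ran from 0.0286, the smallest that 3 against 4 allows, to 0.143 for sinhcaf, 0.0571 for summed FPKM and 0.0857 for the mitochondrial percentage. Among the genes given in the text, differences that changed sign were those of lhcgr (-0.058) and igf3 (-0.13) without mutant libraries 2 and 4, and mt-co1 (0.10) with quantile normalization, none of them called either way. The cause of these shifts was not tested, apart from the fewer libraries or genes that a setting holds. Of 1968 list counts under these settings 1581 stayed within 1.5 times of the main count. Both settings that leave out a pair of mutant libraries were chosen after seeing the data. Absolute depth is unknown, so no counting error can be given for low values.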
